A study of Mus musculus with 16 samples.

Results

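The comparison described here set livers of mice given an adeno-associated virus (AAV) labelled Yap1S5A against livers of mice given one labelled GFP (green fluorescent protein), across every gene of the deposited count table. These 8 liver libraries, of 16 in the series, were chosen by their titles and joined to their count columns through the barcodes in the sample descriptions. Each group had 4 libraries of total RNA from frozen bulk liver, prepared by the Ion Total RNA-Seq v2 protocol. Both groups were male C57BL6/J mice 12 to 14 weeks old, sampled at day 7 after the virus, with the genotype labels AAV-DJ8-TGB-Yap1S5A and AAV-DJ8-TGB-EGFP. The series design places Yap1S5A expression in the liver. The sources used here do not give the promoter, the dose or the species of the transgene, and both groups carried a virus, so no uninfected liver enters the comparison. The treatment text of these samples instead describes sham operations and partial hepatectomy, and the groups follow the titles.

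Yap1 is a transcriptional coactivator that binds DNA through the TEAD factors and is held in the cytoplasm by the Hippo kinases Stk3, Stk4, Lats1 and Lats2. The name Yap1S5A is used for a form whose inhibitory serines were changed to alanine, which the kinases can no longer restrain. In mouse liver, an active Yap1 is known for driving hepatocytes to divide, for enlarging the organ and for pushing hepatocytes towards bile duct and progenitor features. Adult hepatocytes otherwise rarely divide and devote their transcription to plasma proteins, detoxification and intermediary metabolism.

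Yap1 itself (chromosome 9, 7932001 to 8004596, build mm10) was lower, not higher, under the Yap1S5A label. It stood at 47.1, 50.5, 53.2 and 55.1 CPM in Yap1S5A-labelled livers, against 74.2, 75.6, 69.9 and 81.5 CPM in GFP-labelled livers. CPM are read counts scaled to a library of 1e+06 reads, here after scaling by the trimmed mean of M-values (TMM). The groups did not overlap (log2 fold change -0.55 ± 0.12, estimate ± SE, edgeR adjusted p = 0.00089), and with scaling by library totals the gene was not called (-0.12, edgeR adjusted p = 0.40). These counts show no excess of Yap1 under the Yap1S5A label, so directions below are between libraries labelled Yap1S5A and libraries labelled GFP. Whether the gene model captures reads of the transgene is not known, so these counts cannot tell whether the transgene was expressed.

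Depth was 15743520 to 16491679 counts in Yap1S5A-labelled livers, against 13817718 to 15589362 counts in GFP-labelled livers. Albumin, Alb, took 13.4% to 15.6% of the reads of Yap1S5A-labelled livers, against 8.93% to 10% of those of GFP-labelled livers, against at most 0.0107% in any quadriceps library, so the tissue label held. The ribosomal RNA precursor Rn45s took 4.23% to 4.81% in Yap1S5A-labelled livers, against 0.692% to 9.71% in GFP-labelled livers, with the lowest value in GFP replicate 2. The first principal component of log2 CPM held 85.8% of the variance and separated the groups. The labels do not say outright that replicates are separate mice, so p-values measure only the spread between these libraries, which may be technical.

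About as many genes were called higher as lower. Of 12818 genes tested, 4264 (33.3%) were called higher in Yap1S5A-labelled livers and 3890 (30.3%) lower, which is 63.6% in either direction, at an adjusted p under 0.05 by edgeR's quasi-likelihood test with Benjamini-Hochberg adjustment over all genes tested. Scaling by library totals puts the median log2 fold change of all genes at 0.46 in place of 0.03 and turns that split into 6506 higher and 2102 lower, that is 75.6% of calls higher where TMM gives 52.3%. Every direction below is therefore relative to the TMM scale. A stricter rule, edgeR's glmTreat test that the change exceeds 2-fold, called 2017 genes higher (15.7%) and 944 lower (7.36%). The libraries of Yap1S5A-labelled livers lay above all those of GFP-labelled livers for 3959 genes (30.9%) and below all of them for 3399 (26.5%). For 1511 genes (11.8%) the 95% interval of the log2 fold change lay inside 0.5 on either side of 0.

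Calls followed expression level. Among the 96 tested genes with a mean over 1000 CPM, 64 were lower and 8 higher, with a median log2 fold change of -1.0. Among the 4155 genes between 1 and 10 CPM, 1879 were higher and 710 lower, with a median of 0.44. Fold changes above 4 on the log2 scale were listed for 433 genes, and below -4 for 67. More tested genes missed the filter on low counts within GFP-labelled livers (1490) than within Yap1S5A-labelled livers (275). Genes that met it in 1 group alone had a difference built in, which enters the splits at low levels and beyond 2-fold. Of the 11170 that passed in each group, 3083 were higher and 3753 lower. At the top of the table, the 10 most abundant genes took 27.7% to 29.1% of counts in Yap1S5A-labelled livers, against 19.6% to 25.5% in GFP-labelled livers, although 164 to 198 genes were needed to hold 50% of counts in Yap1S5A-labelled livers, against 117 to 157 in GFP-labelled livers. Calls also followed exonic length, from a median of -0.51 in the shortest genes to 0.35 in the longest, over 4 classes of equal size. Taking a smooth trend with length out of each library left 3922 genes higher and 3841 lower.

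**Figure D1:**
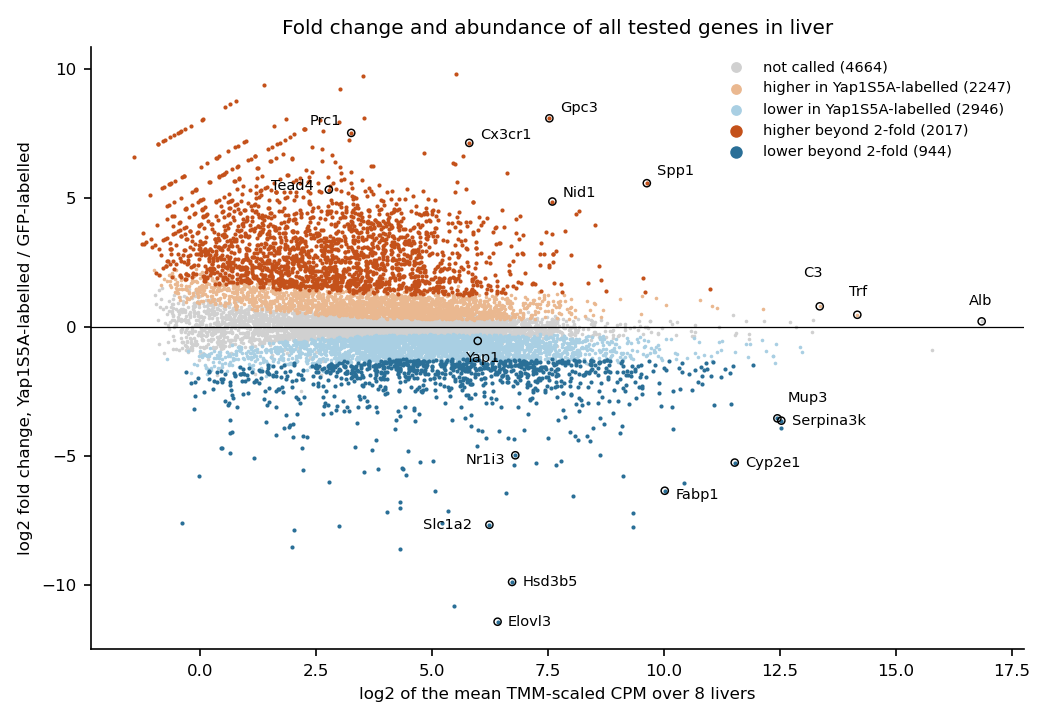
Log2 fold change of Yap1S5A-labelled over GFP-labelled livers (vertical axis) against the log2 of mean CPM over the 8 livers (horizontal axis), 1 point per tested gene, coloured by call. The 2017 genes higher beyond 2-fold lie mostly at low and middle abundance, and the most abundant genes lie mostly below 0.

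Of 40 Hippo pathway components, each of them tested, 27 were higher and 2, Yap1 and Crb3, were lower. The median log2 fold change was 1.04, beside 0.03 over all genes. Of the 37 that passed the filter on low counts within each group, 24 were higher and 2 lower, with a median of 0.93. Over all genes, 11170 passed it in each group, 27.6% of them higher and 33.6% lower (median -0.06). This is the background for such counts below. For 3 components the filter was met in Yap1S5A-labelled livers alone, so a difference in them was built in.

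Among the DNA-binding partners, Tead1 (chromosome 7, 112679320 to 112906805) stood at 56.6, 58, 63.9 and 62.3 CPM in Yap1S5A-labelled livers, against 12.4, 11.6, 17.2 and 9.12 CPM in GFP-labelled livers. Tead4 (chromosome 6, 128227143 to 128300813) stood at 11.9, 12.7, 13.2 and 15.8 CPM in Yap1S5A-labelled livers, against 0.388, 0.0732, 0.457 and 0.411 CPM in GFP-labelled livers. Both genes were thus higher in each Yap1S5A-labelled library than in any GFP-labelled library, with log2 fold changes of 2.25 ± 0.17 and 5.31 ± 0.30 (edgeR adjusted p = 5.05e-08 and 3.26e-09). Tead2 was higher too (1.94 ± 0.42, edgeR adjusted p = 0.00107), while Tead3 had a mean of 12.5 ± 1.76 CPM in Yap1S5A-labelled livers, against 15.2 ± 1.45 CPM in GFP-labelled livers (SD, n = 4) and was not called. The cofactor gene Vgll3, whose product competes for TEAD surfaces, stood at 10.7, 10.2, 10 and 8.99 CPM in Yap1S5A-labelled livers, against 0.0776, 0.512, 0 and 0.164 CPM in GFP-labelled livers (5.64 ± 0.42, and 6.85 without GFP replicate 2). Its relative Vgll4 was at -0.03 ± 0.17 and not called. Wwtr1, which encodes the Yap1 paralogue TAZ, had 44.4, 40.7, 44.6 and 37 CPM in Yap1S5A-labelled livers, against 13.5, 17.1, 13.6 and 17.4 CPM in GFP-labelled livers. Wwtr1 thus ran opposite to Yap1, with groups that did not overlap and a log2 fold change of 1.44 ± 0.14 (edgeR adjusted p = 5.96e-07).

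Upstream, the kinase genes and their partners moved unevenly. Map4k4, Stk4 and Lats2 were higher, at 2.17 ± 0.15, 1.13 ± 0.13 and 1.03 ± 0.13 on the log2 scale, as was the kinase adaptor gene Mob1a (1.21 ± 0.17), while Lats1, Sav1, Nf2, Taok2 and Taok3 were not called. The scaffolds of the WWC family, Wwc1 and Wwc2, were higher by 1.69 ± 0.14 and 1.38 ± 0.12. Among proteins that hold Yap1 at the membrane or in the cytoplasm, Amot, Amotl2 and Ptpn14 were higher by 1.96 ± 0.14, 1.59 ± 0.14 and 2.46 ± 0.19. Amotl2 stood at 118, 129, 124 and 138 CPM in Yap1S5A-labelled livers, against 43.4, 45.3, 33.1 and 47 CPM in GFP-labelled livers, with no overlap. Of the RASSF scaffolds, Rassf2 was furthest apart, at 25.1, 27.9, 27.2 and 29.1 CPM in Yap1S5A-labelled livers, against 2.25, 1.61, 1.07 and 1.89 CPM in GFP-labelled livers. Rassf2 is also expressed by blood cells, whose markers rose in the same libraries as given below, and their part in it was not tested. Rassf1, Rassf5, the FERM-domain gene Frmd6 and the tight junction scaffold Tjp1 were higher by 1.04 to 1.67, and the protocadherin genes Dchs1 and Fat4 by 1.52 ± 0.22 and 1.62 ± 0.25. The polarity genes Scrib and Mpp5 and the adaptor gene Limd1 were not called.

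Several weak calls in this pathway rested on single libraries. Crb3, an apical polarity gene at -0.51 ± 0.18, was not called without GFP replicate 3 or 4 (-0.43 and -0.48). Fat1, at 0.5 ± 0.16, was not called without Yap1S5A replicate 3 or 4 (0.39 for each). Stk3, at 0.54 ± 0.20, was not called without any 1 of Yap1S5A replicates 1, 2 and 3 and GFP replicates 3 and 4 (0.39 to 0.53). Taok1, at 0.42 ± 0.15, was not called without Yap1S5A replicate 1 or 2 or GFP replicate 1 or 4 (0.23 to 0.42). Mob1b, not called at -0.35 ± 0.19, was lower without Yap1S5A replicate 1 (-0.60). With the length trend taken out, 23 components were higher and 4 lower, and Amotl1, Llgl1, Fat1, Stk3 and Taok1 lost their calls. Scaling by library totals made Lats1, Sav1, Nf2, Taok2, Limd1 and Mpp5 higher (0.41 to 0.67).

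**Figure D2:**
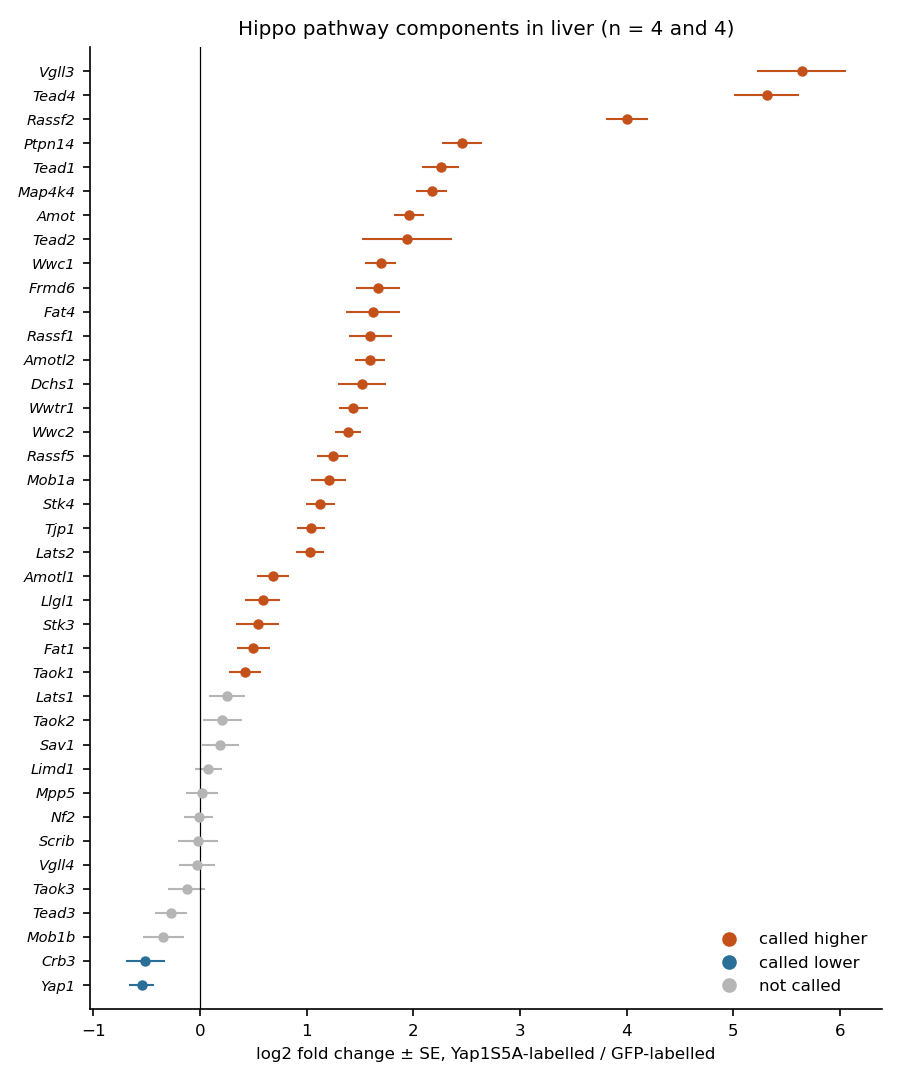
Log2 fold change of Yap1S5A-labelled over GFP-labelled livers with its SE (horizontal axis) for the Hippo pathway components reported here (rows), with points coloured by call. Vgll3, Tead4 and Rassf2 lie furthest to the right, and Yap1 and Crb3 are the 2 called to the left of 0.

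The 250 bases before the start of Amotl2 and Ptpn14 are shown because both genes rose and each window holds the TEAD core GGAATG, here on the minus strand as CATTCC. Sequences are RefSeq's, build GRCm38.p6, and capitals mark the match.
Amotl2 (chr9:102717554-102717803, plus strand): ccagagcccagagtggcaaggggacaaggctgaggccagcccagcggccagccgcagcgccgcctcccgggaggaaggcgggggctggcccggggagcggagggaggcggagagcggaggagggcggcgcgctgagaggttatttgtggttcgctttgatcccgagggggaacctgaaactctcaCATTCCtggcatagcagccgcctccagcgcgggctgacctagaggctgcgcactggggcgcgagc
Ptpn14 (chr1:189728018-189728267, plus strand): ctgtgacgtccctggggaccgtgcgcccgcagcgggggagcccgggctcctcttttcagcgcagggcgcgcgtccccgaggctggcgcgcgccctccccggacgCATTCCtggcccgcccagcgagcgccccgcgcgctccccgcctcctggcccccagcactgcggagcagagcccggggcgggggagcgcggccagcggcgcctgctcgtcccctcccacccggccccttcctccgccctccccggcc
The match lay 65 bases before the start of Amotl2 and 146 before that of Ptpn14. Searched on both strands, the letters GGAATG occurred in 12.6% of all 32817 RefSeq promoters of that length. A RefSeq promoter within 1000 bases of the deposited start was found for 10001 of the 12818 tested genes (78.0%) and for 29 of the 40 Hippo components. The letters occurred in 10.6% of those 10001 promoters. A share over the Hippo list is not given, for want of promoters for the other components. A match is a description of the letters and no evidence of binding.

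Plasma protein genes were lower more often than higher. Of 35 tested hepatocyte plasma protein genes, 22 were lower and 5 higher (median log2 fold change -0.78), with 3 higher without Yap1S5A replicate 2 or 3. Alb was not called, at 139500, 132900, 115500 and 119000 CPM in Yap1S5A-labelled livers, against 121600, 110700, 104400 and 102300 CPM in GFP-labelled livers, and the groups overlapped (0.21 ± 0.15, edgeR adjusted p = 0.228). Library totals (0.63) or the removal of the length trend (0.38) made it higher. Among called genes, the largest gain in mean CPM belonged to the transferrin gene Trf, at 17170, 21850, 24000 and 22450 CPM in Yap1S5A-labelled livers, against 16280, 17100, 15800 and 12790 CPM in GFP-labelled livers. Its groups did not overlap, but its call (0.46 ± 0.16, edgeR adjusted p = 0.02) ended when Yap1S5A replicate 2, 3 or 4 or GFP replicate 4 was left out (0.36 to 0.41). C3, the central complement component, was higher, at 12110, 13880, 13150 and 14150 CPM in Yap1S5A-labelled livers, against 7381, 8592, 6584 and 8255 CPM in GFP-labelled livers (0.79 ± 0.15, edgeR adjusted p = 0.00029). The copper oxidase gene Cp averaged 3013 ± 453 CPM in Yap1S5A-labelled livers, against 1094 ± 197 CPM in GFP-labelled livers (SD, n = 4), a log2 fold change of 1.46 ± 0.17. The haemoglobin scavenger gene Hp, the chaperone gene Clu, the hyaluronan-binding gene Itih2 and the fibronectin gene Fn1 were also among the 10 largest gains of called genes, with log2 fold changes of 0.69 to 1.03. The groups overlapped for Fn1, which lost its call with the length trend taken out.

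Among called genes, the 10 largest losses in mean CPM held 3 apolipoprotein genes and 4 members of families with near-identical copies. Apoa2 stood at 699, 798, 479.7 and 469.8 CPM in Yap1S5A-labelled livers, against 5352, 4835, 4867 and 4694 CPM in GFP-labelled livers (-3.01 ± 0.20), and Apoe and Apoa1 were lower by smaller amounts (-0.98 ± 0.20 and -0.8 ± 0.17). Apoa1 lost its call with the length trend taken out. Mup3, Serpina1c, Serpina1e and Serpina3k belong to gene clusters whose reads the authors' counting could split between copies, so single values are uncertain. Serpina3k stood at 1194, 766, 1037 and 523 CPM in Yap1S5A-labelled livers, against 11800, 12010, 7801 and 12230 CPM in GFP-labelled livers, a log2 fold change of -3.64 ± 0.26, and Mup3, a major urinary protein gene, was at -3.55 ± 0.25. Scd1, the stearoyl-CoA desaturase, had 783, 906, 982 and 238 CPM in Yap1S5A-labelled livers, against 16640, 13410, 10030 and 4153 CPM in GFP-labelled livers. The 4 GFP-labelled livers differed among themselves in Scd1, yet each was above every Yap1S5A-labelled liver (-3.93 ± 0.56, edgeR adjusted p = 0.00025). The selenium transport gene Sepp1 and the ethanol-oxidising P450 gene Cyp2e1 complete the 10 (-1.14 ± 0.17 and -5.26 ± 0.37). Rn45s, whose groups overlapped, was not called and is not among them.

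**Figure D3:**
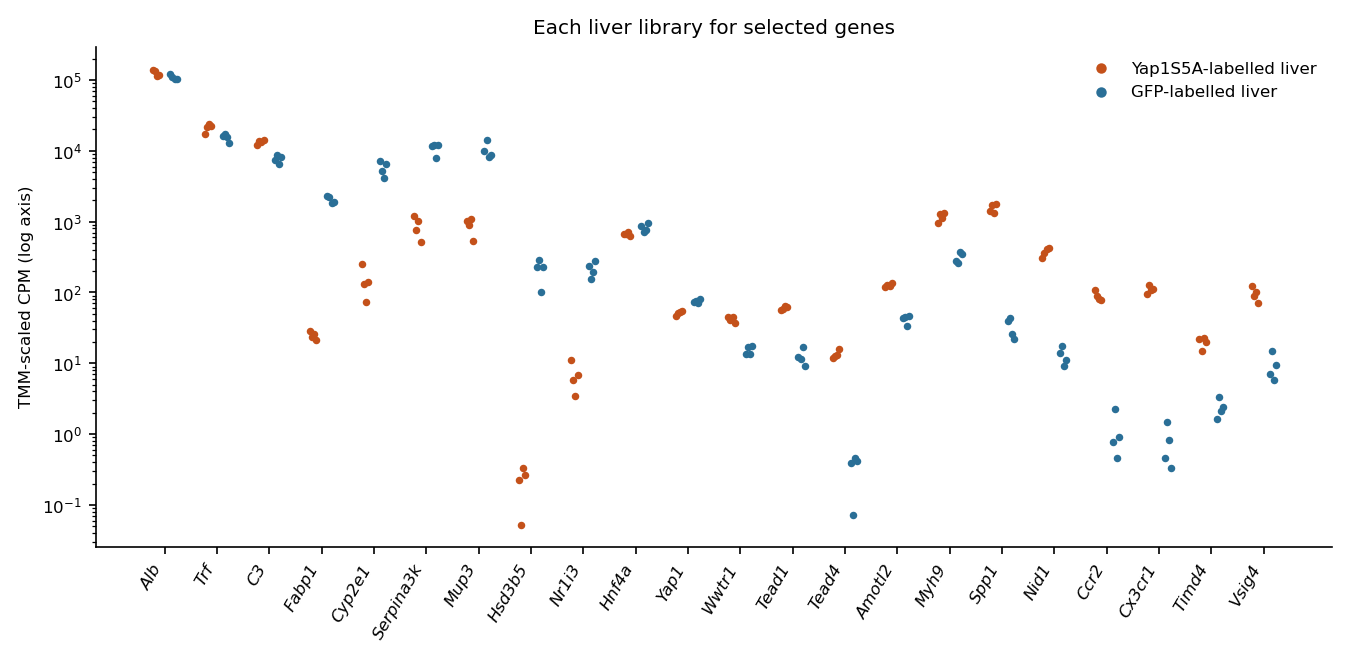
CPM in each library (log axis) for 22 genes named in the text, with Yap1S5A-labelled and GFP-labelled livers drawn as separate points. Cx3cr1 and Spp1 lie far higher in Yap1S5A-labelled livers, Fabp1 and Nr1i3 far lower, and the groups overlap for Alb.

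Transcription factors that set the hepatocyte programme were lower more often than higher. Of 29 tested, 19 were lower and 1 was higher, with a median of -0.67 (2 were higher without Yap1S5A replicate 4 or GFP replicate 2 or 4). The nuclear receptor gene Nr1i3, known as CAR and a sensor of foreign compounds, stood at 11.2, 5.86, 3.49 and 6.78 CPM in Yap1S5A-labelled livers, against 233, 156, 196 and 276 CPM in GFP-labelled livers. These groups lay far apart (-4.98 ± 0.32, edgeR adjusted p = 4.75e-08). The bile acid responsive repressor gene Nr0b2 and the fasting-induced factor gene Creb3l3 followed, at -2.48 ± 0.32 and -1.83 ± 0.18. Hnf4a, the best known of the list and chosen here after its values were seen, was not called (-0.30 ± 0.14, edgeR adjusted p = 0.0768). In bulk liver, fewer cells of a type and less RNA per cell cannot be told apart, which applies to each hepatocyte gene here.

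Detoxification genes were mostly lower. Of 56 tested cytochrome P450 genes of drug and steroid metabolism, 41 were lower and 7 higher (median -1.81), 32 of the falls beyond 2-fold, with 34 lower and 4 higher among the 46 that passed the low-count filter in each group. Summed over the list, CPM came to 7000, 5357, 6070 and 4510 in Yap1S5A-labelled livers, against 30040, 31520, 25730 and 29710 in GFP-labelled livers. Cyp2e1 alone stood at 253, 130.2, 74.3 and 141 CPM in Yap1S5A-labelled livers, against 7287, 5153, 4133 and 6434 CPM in GFP-labelled livers. Cyp2a5, Cyp2c38 and Cyp4a12b, all in families of close copies, were at -7.77 ± 0.65, -6.78 ± 0.34 and -7.15 ± 0.54, with Cyp2a5 at -8.74 without Yap1S5A replicate 1 and Cyp4a12b at -7.84 without Yap1S5A replicate 3. The largest rises were of Cyp4f18, known from blood phagocytes (4.94 ± 0.47, and 5.70 without GFP replicate 3), and of Cyp2b9 and Cyp4a31. Cyp2b9 had 242 counts in Yap1S5A-labelled livers, against 3 in GFP-labelled livers, a ratio of 56.3 with a 95% interval of 19 to 275 that covers counting error alone.

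Among 52 tested phase II enzymes, which conjugate drugs and hormones, 43 were lower and 1 higher (median -1.35), with 2 higher without GFP replicate 1. The sulfotransferase gene Sult2a8 stood at 42.5, 23.1, 22.6 and 9.1 CPM in Yap1S5A-labelled livers, against 643, 1010, 643 and 756 CPM in GFP-labelled livers (-4.97 ± 0.43). The glucuronosyltransferase genes Ugt1a9 and Ugt2b38 were at -4.81 ± 0.53 (-5.60 without Yap1S5A replicate 1) and -4.69 ± 0.50, and both share sequence with neighbours. The 1 that rose, the glutathione transferase gene Gstm5, was at 0.44 ± 0.15 and was not called once Yap1S5A replicate 3 or 4 or GFP replicate 4 was left out (0.35 to 0.40). Of 55 tested hepatocyte transporters, 39 were lower and 10 higher (median -0.99). The steroid and bile acid uptake gene Slco1a1 stood at 11.6, 9.13, 15.7 and 10.5 CPM in Yap1S5A-labelled livers, against 449, 486, 371 and 403 CPM in GFP-labelled livers (-5.18 ± 0.20), and the glutamate uptake gene Slc1a2 was at -7.67 ± 0.23. The multidrug efflux gene Abcb1a went the other way, at 37.4, 43.1, 58.5 and 43.7 CPM in Yap1S5A-labelled livers, against 2.95, 2.56, 4.65 and 2.38 CPM in GFP-labelled livers (3.86 ± 0.22), as did Abcb1b and Abcc5 (2.97 ± 0.27 and 2.7 ± 0.19).

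Genes of amino acid breakdown were mostly lower. Of 74 tested urea cycle and amino acid genes, 63 were lower and 2 higher (median -1.04), 28 of the falls beyond 2-fold. Oat, which converts ornithine, stood at 32.7, 29.7, 36.4 and 32.8 CPM in Yap1S5A-labelled livers, against 749.5, 464, 622 and 618 CPM in GFP-labelled livers. Haao of tryptophan breakdown and Prodh of proline breakdown were lower by similar amounts (-2.96 ± 0.19 and -2.97 ± 0.17, beside -4.22 ± 0.18 for Oat). The 2 that rose were Gldc of glycine cleavage and Gpt2, a mitochondrial alanine aminotransferase (0.53 ± 0.17 and 0.48 ± 0.15), and Gpt2 lost its call without Yap1S5A replicate 3 (0.37).

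In the peroxisome, 40 of 50 tested genes were lower and 3 higher (median -1.07). The thiolase gene Acaa1b stood at 66.3, 79.4, 76.3 and 67.8 CPM in Yap1S5A-labelled livers, against 999, 896, 1129 and 1090 CPM in GFP-labelled livers, and the glycolate oxidase gene Hao1 and the phytanic acid oxidase gene Phyh were at -2.75 ± 0.19 and -2.57 ± 0.15. The 3 that rose were Far1, Agps and Abcd2. Far1 and Agps both serve ether lipid synthesis. Far1 stood at 17, 13, 13.6 and 11.5 CPM in Yap1S5A-labelled livers, against 1.48, 2.78, 1.45 and 0.985 CPM in GFP-labelled livers, and Agps at 45.8, 36.9, 38.5 and 34.3 CPM in Yap1S5A-labelled livers, against 11.2, 13.9, 10.7 and 12.7 CPM in GFP-labelled livers. Neither gene's groups overlapped (3.02 ± 0.26 and 1.68 ± 0.14), while those of Abcd2 did (0.93 ± 0.27).

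Lipid storage and lipoprotein genes were mostly lower. Of 43 tested lipid droplet and triglyceride genes, 34 were lower and 4 higher (median -1.07), and of 36 apolipoprotein and lipoprotein genes 24 were lower and 7 higher (median -0.84). Fabp1, the liver fatty acid binding protein (chromosome 6, 71199888 to 71205023), stood at 28.5, 23.8, 26.2 and 21.6 CPM in Yap1S5A-labelled livers, against 2269, 2211, 1845 and 1872 CPM in GFP-labelled livers (-6.36 ± 0.18, edgeR adjusted p = 4.13e-11). Fitm1 of lipid droplet formation and the carboxylesterase gene Ces3b fell as well (-4.79 ± 0.32 and -4.4 ± 0.25), as did Apoa4 and the endothelial lipase gene Lipg (-3.98 ± 0.31 and -4.64 ± 0.39). Among the members that were higher, the scavenger receptor gene Cd36 stood at 296, 188, 227 and 154 CPM in Yap1S5A-labelled livers, against 43.1, 38.8, 17.4 and 19.9 CPM in GFP-labelled livers, and the lipoprotein lipase gene Lpl at 158, 146, 161 and 97 CPM in Yap1S5A-labelled livers, against 12.1, 29.6, 22.9 and 12.2 CPM in GFP-labelled livers. The very low density lipoprotein receptor gene Vldlr and the cholesterol exporter gene Abcg1 rose with them (2.86 ± 0.31, 2.87 ± 0.29, 2.8 ± 0.27 and 3.23 ± 0.17 in that order). Cd36, Lpl and Abcg1 are also expressed by macrophages, whose markers rose in the same libraries, and their part was not tested.

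The 250 bases before the RefSeq start of Fabp1 are shown because this abundant gene fell far. Capitals mark GTTAAT, the core letters bound by the hepatocyte factor HNF1.
Fabp1 (chr6:71199629-71199878, plus strand, GRCm38.p6): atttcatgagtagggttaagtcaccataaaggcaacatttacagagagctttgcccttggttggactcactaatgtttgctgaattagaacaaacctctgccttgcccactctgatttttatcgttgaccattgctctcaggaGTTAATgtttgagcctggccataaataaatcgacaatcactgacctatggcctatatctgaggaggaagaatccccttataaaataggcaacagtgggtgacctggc
The match lay 107 bases before the start, and on both strands GTTAAT occurred in 6.44% of all RefSeq promoters of that length.

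Genes known as higher in male than in female mouse liver were mostly lower in these male livers. Of 40 tested, 35 were lower and 1 higher (median -3.17), with 2 higher without Yap1S5A replicate 4 or GFP replicate 1. For 10 of the 40 the low-count filter was met in GFP-labelled livers alone, and of the 30 that met it in each group 25 were lower, with a median of -2.47. Elovl3, a fatty acid elongase (chromosome 19, 46131899 to 46135694), stood at 0.0555, 0, 0 and 0.158 CPM in Yap1S5A-labelled livers, against 227, 240.5, 120.4 and 93.6 CPM in GFP-labelled livers (-11.43 ± 0.57, and -12.69 without Yap1S5A replicate 4). Hsd3b5, a steroid-metabolising gene with close copies, stood at 0.222, 0.0528, 0.327 and 0.263 CPM in Yap1S5A-labelled livers, against 229.9, 286, 100.1 and 231 CPM in GFP-labelled livers (-9.89 ± 0.45). Serpina4-ps1, annotated as a pseudogene, had 3 counts in Yap1S5A-labelled livers, against 4604 in GFP-labelled livers. In each of these genes the 4 Yap1S5A-labelled livers lay below the 4 GFP-labelled livers.

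Genes known as higher in female mouse liver did not move as a block. Of 36 tested, 17 were higher and 13 lower (median 0.35), and of 26 that passed the filter in each group 12 were higher and 8 lower. Cux2, a repressor known from female liver, stood at 1.5, 3.01, 6.17 and 3.26 CPM in Yap1S5A-labelled livers, against 0.311, 0.146, 0 and 0.164 CPM in GFP-labelled livers (4.43 ± 0.60). Cyp4a10 and Cyp4a14, fatty acid hydroxylases in a cluster of copies, were lower (-5.35 ± 0.45 and -6.45 ± 0.57, and -6.0 and -7.15 without Yap1S5A replicate 1). On the growth hormone and IGF1 axis, 8 of 28 tested genes were higher and 5 lower (median 0.05). With length taken out the median was -0.08, so the list has no direction that holds across settings. The fetal growth factor gene Igf2 stood at 17.8, 35.9, 20 and 37.2 CPM in Yap1S5A-labelled livers, against 2.56, 1.98, 2.82 and 0.493 CPM in GFP-labelled livers (3.81 ± 0.39), while the binding protein gene Igfbp2 was lower (-2.65 ± 0.23).

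Adult liver uses its own isozymes for many steps, and their share was taken as the adult form's percentage of its family's summed CPM per kilobase of exon. This share was below every GFP-labelled liver in each Yap1S5A-labelled liver for 10 of 14 families, overlapped for 3 and was above for 1, the phosphofructokinases. Among pyruvate kinases, the liver form Pklr held 34%, 32.7%, 45.2% and 24.1% in Yap1S5A-labelled livers, against 97.7%, 96.2%, 96.4% and 95.1% in GFP-labelled livers. Pklr itself stood at 36.3, 44.4, 66.6 and 27.2 CPM in Yap1S5A-labelled livers, against 449.5, 424, 531 and 247 CPM in GFP-labelled livers (-3.24 ± 0.29), and Pkm, the form of dividing and non-hepatic cells, at 65.4, 84.6, 74.9 and 79.4 CPM in Yap1S5A-labelled livers, against 10, 15.4, 18.2 and 11.7 CPM in GFP-labelled livers (2.46 ± 0.18). The lower share thus came with both a lower Pklr and a higher Pkm.

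The families differed in how the share changed. Acacb, the acetyl-CoA carboxylase that restrains fatty acid oxidation, held 10.3%, 13.1%, 11.3% and 9.1% of its pair in Yap1S5A-labelled livers, against 74.6%, 74.3%, 76.4% and 70.2% in GFP-labelled livers. Here Acacb fell (-5.36 ± 0.32) more than its partner Acaca (-0.82 ± 0.22). Fabp1 held 53.8% of its family in Yap1S5A-labelled livers, against 99.0% in GFP-labelled livers, by means, with Fabp7, known from brain, higher by 4.5 ± 0.34. For glycogen phosphorylase the liver form Pygl fell (-1.32 ± 0.15) while Pygb rose (2.79 ± 0.17). The hexokinase genes Hk1, Hk2 and Hk3, used by many tissues outside the hepatocyte, were higher by 2.15 ± 0.24, 4.11 ± 0.22 and 3.16 ± 0.21. The 3 families that overlapped were the methionine adenosyltransferases, the glucose-6-phosphatases and the acyl-CoA synthetases. Hk3 is known from white blood cells and Pkm from many non-hepatic cells, and the part of such cells in these values was not tested.

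**Figure D4:**
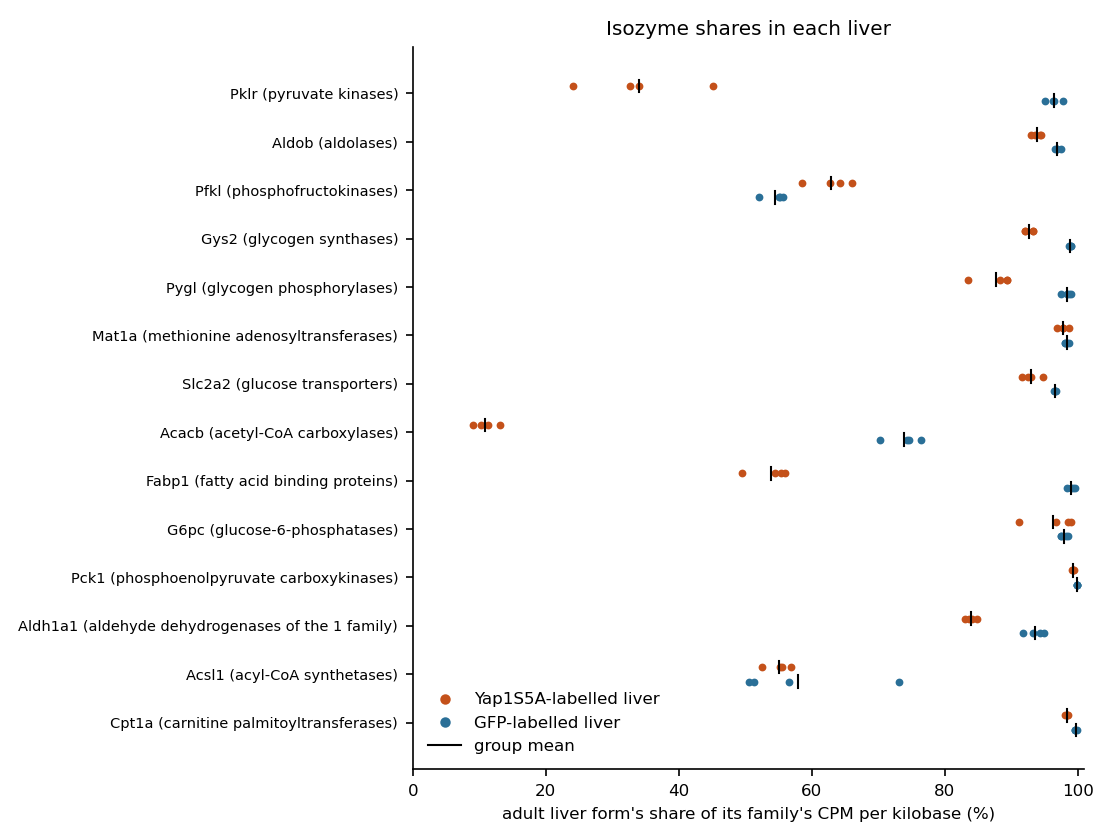
Share of the adult liver isozyme in its family's summed CPM per kilobase (percent, horizontal axis) in each library, for 14 families (rows). Bars mark group means, and the widest gaps between Yap1S5A-labelled and GFP-labelled livers are those of Pklr (34% and 96.4%), Acacb (10.9% and 73.9%) and Fabp1 (53.8% and 99.0%).

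Many genes that serve mitosis were counted in Yap1S5A-labelled livers and close to 0 in GFP-labelled livers. Of 73 tested spindle, kinetochore and cytokinesis genes, 66 were higher and 2 lower (median 4.46). For 52 of these the filter was met in Yap1S5A-labelled livers alone, and of the 21 that met it in each group 14 were higher and 2 lower (median 1.30). The midzone crosslinker gene Prc1 (chromosome 7, 80294451 to 80316259) stood at 17.9, 22.4, 17.9 and 17.9 CPM in Yap1S5A-labelled livers, against 0, 0.0732, 0.0762 and 0.246 CPM in GFP-labelled livers (7.51 ± 0.34, and 8.36 without GFP replicate 4). The cytokinesis regulator gene Racgap1 had 19.8, 27.8, 24 and 20.3 CPM in Yap1S5A-labelled livers, against 0.0776, 0.0732, 0 and 0.164 CPM in GFP-labelled livers (8.08 ± 0.33). The 2 that were lower were the separase inhibitor gene Pttg1 (-1.18 ± 0.15) and the kinetochore gene Spc24 (-0.58 ± 0.20). Pttg1 stood at 9.71, 12, 9.6 and 8.41 CPM in Yap1S5A-labelled livers, against 23.6, 20, 25.3 and 21.3 CPM in GFP-labelled livers, with no overlap, while Spc24 was not called once Yap1S5A replicate 2 or GFP replicate 1 or 3 was left out (-0.43 to -0.55).

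The promoter of Prc1 is shown as that of a gene near 0 in one group. Capitals mark CCAAT, the box bound by NF-Y that is common in promoters of mitotic genes.
Prc1 (chr7:80294201-80294450, plus strand, GRCm38.p6): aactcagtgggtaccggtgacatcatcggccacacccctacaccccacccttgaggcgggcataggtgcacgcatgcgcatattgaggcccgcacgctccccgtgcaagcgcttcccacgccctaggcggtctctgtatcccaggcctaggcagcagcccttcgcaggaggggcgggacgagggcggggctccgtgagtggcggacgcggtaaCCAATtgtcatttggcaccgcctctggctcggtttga
The box lay 37 bases before the start. On both strands, CCAAT occurred in 38 of the 63 spindle list promoters found (60.3%) and in 33.8% of all RefSeq promoters of that length. It occurred in 36.4% of the 10001 promoters found for tested genes. The share was 33.5% of the 1495 promoters found for genes higher beyond 2-fold and 41.5% of the 739 found for genes lower beyond 2-fold. For genes not called it was 37.4%. These shares cover only genes with a promoter found, and the differences between them were not tested. A second search, for TTTGAA on both strands, found no match in the Prc1 window. A match is no evidence of binding.

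Cyclin, replication and repair genes were higher more often than lower. Of 48 tested cyclin, cyclin-dependent kinase and E2F genes, 31 were higher and 5 lower (median 0.80), with 21 and 5 among the 37 that passed in each group. Ccna2, the cyclin of S and G2 phase, stood at 14.8, 19.3, 15.4 and 14.9 CPM in Yap1S5A-labelled livers, against 0.0776, 0.366, 0.305 and 0.493 CPM in GFP-labelled livers (5.67 ± 0.29). The mitotic cyclin gene Ccnb1 had 568 counts in Yap1S5A-labelled livers, against 2 in GFP-labelled livers, a ratio of 198 (95% interval 54.7 to 1642). The mitotic phosphatase gene Cdc25c had 215 counts in Yap1S5A-labelled livers, against 0 in GFP-labelled livers, at least 50-fold higher against a floor of 3 counts over the group. Of 65 tested replication and nucleotide genes, 41 were higher and 5 lower (median 0.79), with 34 and 5 among the 58 that passed in each group. The helicase subunit gene Mcm5 stood at 25.2, 27.8, 30.3 and 35.2 CPM in Yap1S5A-labelled livers, against 0.776, 1.17, 0.914 and 1.15 CPM in GFP-labelled livers, and Uhrf1, which maintains DNA methylation, at 5.39 ± 0.27 on the log2 scale. Mcm10 went the other way, at 16.2, 17.8, 15.9 and 16.1 CPM in Yap1S5A-labelled livers, against 76.1, 81.7, 82.9 and 79.5 CPM in GFP-labelled livers (-2.28 ± 0.12), as did the nucleotide pyrophosphatase gene Dctpp1 (-1.33 ± 0.15). In homologous recombination and Fanconi repair, 28 of 39 tested genes were higher and 4 lower (median 1.29), with 15 and 4 among 26 that passed in each group. The Fanconi gene Fanci had 250 counts in Yap1S5A-labelled livers, against 1 in GFP-labelled livers, a ratio of 175 (31 to 6923), and Rad51ap1 was at 5.86 ± 0.51 (7.2 without GFP replicate 3).

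Growth and fetal genes rose in part. Of 29 tested oncofetal and imprinted genes, 19 were higher and 3 lower (median 1.28), and of 19 that passed in each group 13 were higher and 3 lower. Gpc3, a surface proteoglycan of fetal liver and liver tumours (chromosome X, 52272427 to 52613974), stood at 232, 376, 391 and 475 CPM in Yap1S5A-labelled livers, against 1.94, 2.78, 0.457 and 0.164 CPM in GFP-labelled livers (8.08 ± 0.58, and 8.72 without GFP replicate 2). The imprinted long RNA H19 had 329, 209.9, 81.7 and 148 CPM in Yap1S5A-labelled livers, against 3.57, 1.39, 5.56 and 1.64 CPM in GFP-labelled livers (5.98 ± 0.60). Its spread within Yap1S5A-labelled livers was wide, yet the lowest of them, replicate 3, lay well above the highest GFP-labelled liver. The RNA-binding gene Igf2bp1 had 702 counts in Yap1S5A-labelled livers, against 2 in GFP-labelled livers, a ratio of 245 (67.6 to 2028). The 3 that were lower were Aldoa, Dcn and the amino acid transporter gene Slc38a4 (-0.43 ± 0.14, -0.83 ± 0.22 and -0.98 ± 0.14).

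Of 43 tested genes of EGF and HGF receptors and ligands, 22 were higher and 12 lower (median 0.51), with 17 and 12 among the 37 that passed in each group. Their sum was lower, at 2626 to 3057 CPM in Yap1S5A-labelled livers, against 3301 to 3810 CPM in GFP-labelled livers. On the TMM scale the sum over all tested genes was lower too. That sum stood at 832500 to 892200 CPM in Yap1S5A-labelled livers, against 1122000 to 1210000 CPM in GFP-labelled livers. This is the background for each summed CPM given here, and a change in this list's share of it was not tested. The receptor kinase gene Axl stood at 148, 184, 181 and 186 CPM in Yap1S5A-labelled livers, against 8.62, 15.6, 11.7 and 12.2 CPM in GFP-labelled livers (3.86 ± 0.18), and the ligand genes Nrg1 and Pdgfb were at 3.66 ± 0.26 and 3.43 ± 0.24. Fgf1, Nrg4 and the HGF activator gene Hgfac were lower (-1.66 ± 0.15, -1.52 ± 0.27 and -2.06 ± 0.15). In TGF-beta, BMP and activin signalling, 26 of 53 were higher and 8 lower (median 0.58), including Tgfb3, the activin subunit gene Inhbb and the activin antagonist gene Fstl3 (3.21 ± 0.28, 3.02 ± 0.36 and 4.68 ± 0.47). Fstl3 was at 5.58 without GFP replicate 2. Without GFP replicate 2 the lower count of this list was 5. Of its 47 members that passed in each group, 21 were higher and 8 lower. Of 44 tested Wnt pathway genes and pericentral regulators, 20 were lower and 14 higher, with a median of -0.09 that turned to 0.34 with library totals. Notum, a Wnt inhibitor made next to the central vein, stood at 1.66, 1.06, 0.436 and 0.473 CPM in Yap1S5A-labelled livers, against 38.4, 36.2, 44.9 and 40.5 CPM in GFP-labelled livers (-5.46 ± 0.29). The Wnt secretion gene Wls, the receptor gene Ror1 and the antagonist gene Frzb were higher (1.87 ± 0.26, 2.8 ± 0.24 and 2.42 ± 0.29).

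Actin cytoskeleton genes were mostly higher. Of 70 tested actin cytoskeleton and contractility genes, 54 were higher and 1 lower (median 1.01), and 69 of them passed the filter in each group. Myh9, non-muscle myosin and among the 10 largest gains in mean CPM of called genes, stood at 971, 1282, 1143 and 1317 CPM in Yap1S5A-labelled livers, against 279, 264, 371 and 346 CPM in GFP-labelled livers (1.91 ± 0.16, edgeR adjusted p = 1.86e-07). The actin capping gene Capg and the scaffold gene Iqgap1 were at 4.23 ± 0.22 and 3.67 ± 0.18, and Coro1a, known from blood cells, at 4.08 ± 0.18.

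Of 44 tested integrin, laminin and basement membrane genes, 40 were higher and 1 lower (median 1.91), with 31 and 1 among the 35 that passed in each group. Nid1, a basement membrane linker (chromosome 13, 13437602 to 13512275), stood at 303, 363, 406 and 423 CPM in Yap1S5A-labelled livers, against 13.9, 17.4, 9.29 and 11.1 CPM in GFP-labelled livers (4.85 ± 0.21, edgeR adjusted p = 6.12e-10). The leukocyte integrin genes Itgam and Itga4 rose most, at 6.36 ± 0.20 and 4.95 ± 0.37 (5.56 for Itga4 without GFP replicate 2), and Lama3 was the 1 that fell (-1.35 ± 0.26). Of 41 tested matrix proteases and inhibitors, 35 were higher and 3 lower (median 1.90), with 19 and 3 among 24 that passed in each group. The metalloprotease genes Adam12 and Mmp12 were higher (4.9 ± 0.45, with 5.58 without GFP replicate 2, and 4.52 ± 0.63, with 3.93 without Yap1S5A replicate 1), and Mmp15, Mmp19 and Reck were lower (-0.74 ± 0.13, -0.64 ± 0.19 and -0.82 ± 0.25). Epithelial junction and keratin genes were mixed, with 23 of 43 higher and 7 lower (median 0.48). The placental cadherin gene Cdh3 and the desmosome-associated gene Ppl were higher (2.47 ± 0.40 and 1.92 ± 0.27), and the claudin gene Cldn14 was lower (-2.47 ± 0.22).

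Markers of macrophages from both sources, resident and blood-borne, were mostly higher. Of 15 tested resident Kupffer cell markers, 12 were higher and 3 lower (median 2.27), and their summed level was 1225 to 1472 CPM in Yap1S5A-labelled livers, against 633 to 916 CPM in GFP-labelled livers. Timd4, a receptor of long-lived Kupffer cells, stood at 21.9, 15, 23 and 20.2 CPM in Yap1S5A-labelled livers, against 1.63, 3.37, 2.13 and 2.38 CPM in GFP-labelled livers (3.07 ± 0.22). Vsig4 and Marco were higher by 3.36 ± 0.27 and 3.19 ± 0.33. The 3 that were lower, C6, Id3 and Nr1h3, are also made by hepatocytes or other cells (-1.85 ± 0.18, -0.65 ± 0.22 and -0.39 ± 0.14). Id3 lost its call without GFP replicate 1 or 2 (-0.55 and -0.52), and Nr1h3 once Yap1S5A replicate 2 or GFP replicate 1 or 4 was left out (-0.28 to -0.39). Without GFP replicate 1 the lower count was 1.

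Of 21 tested markers of monocytes and monocyte-derived macrophages, 19 were higher and 2 lower (median 4.30). For 11 of them the filter was met in Yap1S5A-labelled livers alone, and of the 10 that met it in each group 8 were higher and 2 lower (median 3.39). Their summed level was 1996 to 2441 CPM in Yap1S5A-labelled livers, against 469 to 693 CPM in GFP-labelled livers. Spp1 gave most of this sum in Yap1S5A-labelled livers, and F10, at 404 to 604 CPM, most of it in GFP-labelled livers. The chemokine receptor gene Ccr2, which marks monocytes leaving the blood, stood at 109, 90.2, 79.8 and 77.7 CPM in Yap1S5A-labelled livers, against 0.776, 2.27, 0.457 and 0.903 CPM in GFP-labelled livers (6.31 ± 0.31, and 6.96 without GFP replicate 2). The fractalkine receptor gene Cx3cr1 stood at 96.2, 127, 108 and 112 CPM in Yap1S5A-labelled livers, against 0.466, 1.46, 0.838 and 0.329 CPM in GFP-labelled livers (7.12 ± 0.28, edgeR adjusted p = 2.99e-10). In both genes the GFP-labelled libraries were near 0, with GFP replicate 2 the highest. Itgam was at 6.36 ± 0.20, and Spp1, which bile duct cells also make, stood at 1420, 1715, 1328 and 1750 CPM in Yap1S5A-labelled livers, against 39.9, 43.6, 25.6 and 22.3 CPM in GFP-labelled livers (5.56 ± 0.25). The 2 that were lower were F10, a clotting factor of hepatocytes, and Fabp5 (-1.76 ± 0.16 and -1.15 ± 0.44). Fabp5 was called in the full set and without GFP replicate 4, and not without any 1 of the other 7 libraries (-0.63 to -1.25).

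Genes of antigen presentation on MHC class II were higher for 11 of 11 tested (median 2.92), 10 of which passed the filter in each group. Their summed level was 1287 to 1828 CPM in Yap1S5A-labelled livers, against 138 to 209 CPM in GFP-labelled livers. The master regulator gene Ciita stood at 20.2, 20.9, 17.1 and 25.1 CPM in Yap1S5A-labelled livers, against 1.24, 0.878, 0.762 and 1.89 CPM in GFP-labelled livers, and the protease gene Ctss at 4.27 ± 0.25 on the log2 scale (Ciita at 4.13 ± 0.25). Of 43 tested chemokines and receptors, 29 were higher and 7 lower (median 2.03), with 17 and 6 among 30 that passed in each group. Among those lower were Cxcl11, the interleukin receptor subunit gene Il1rap and the cytokine receptor gene Lifr (-2.66 ± 0.41, -2.0 ± 0.12 and -1.65 ± 0.19).

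Other white cells were measured thinly. Of 12 tested dendritic cell markers, 9 were higher and 1 lower, and for 7 the filter was met in Yap1S5A-labelled livers alone. Of the 5 that met it in each group, 3 were higher and 1 lower. The 12 summed to 110 to 138 CPM in Yap1S5A-labelled livers, against 136 to 197 CPM in GFP-labelled livers, most of the latter from Bst2. On the TMM scale the sum over all tested genes was lower too. Irf8 stood at 43.2, 51.7, 42.9 and 45.7 CPM in Yap1S5A-labelled livers, against 5.12, 8.42, 5.86 and 6.73 CPM in GFP-labelled livers (2.81 ± 0.16), and Bst2, an interferon-induced gene, was the 1 that fell (-1.47 ± 0.17). Neutrophil markers were higher for 7 of 7 tested, 6 of which met the filter in Yap1S5A-labelled livers alone, and summed to 117 to 188 CPM in Yap1S5A-labelled livers, against 5.90 to 10.1 CPM in GFP-labelled livers. Lcn2, which injured hepatocytes also make, gave most of that sum, at 88.7, 133, 78.1 and 158 CPM in Yap1S5A-labelled livers, against 4.27, 5.86, 3.5 and 2.46 CPM in GFP-labelled livers (4.82 ± 0.29). T cell and natural killer markers summed to 8.02 to 9.82 CPM in Yap1S5A-labelled livers, against 5.17 to 10.1 CPM in GFP-labelled livers, ranges that overlap, with 3 of 6 tested markers higher and Zap70 lower (-2.1 ± 0.35). Those 3 met the filter in Yap1S5A-labelled livers alone, so a difference in them was built in. Of 6 tested B cell and plasma cell markers, 4 were higher, including Cd22 (1.68 ± 0.28), and without Yap1S5A replicate 1 the count was 2. For 3 of the 6 the filter was met in Yap1S5A-labelled livers alone, and 2 of the 3 others were higher.

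Stellate cell markers differed by state. Of 26 tested markers of activated stellate cells and myofibroblasts, which lay down scar matrix, 25 were higher and 1 was not called (median 2.44), with 18 of 18 higher among those that passed in each group. Their summed level was 4441 to 7220 CPM in Yap1S5A-labelled livers, against 1296 to 2090 CPM in GFP-labelled livers. Fn1, whose groups overlapped, gave most of the sum in GFP-labelled livers (1083 to 1782 CPM). In Yap1S5A-labelled livers Fn1 gave 1500 to 3423 CPM, and Spp1, also in the monocyte sum, a large part of the rest. The matrix glycoprotein gene Thbs1 stood at 30.8, 39.3, 32.9 and 33.2 CPM in Yap1S5A-labelled livers, against 1.63, 2.05, 1.07 and 1.48 CPM in GFP-labelled livers (4.44 ± 0.19), and the calcium-binding protein gene S100a6 was at 4.28 ± 0.30. Of 18 tested markers of quiescent stellate cells, 10 were lower and 3 higher (median -0.58), and the sums were 566 to 616 CPM in Yap1S5A-labelled livers, against 673 to 983 CPM in GFP-labelled livers. As given above, the sum over all tested genes was lower too. Vipr1, Ecm1 and Hhip were lower (-1.97 ± 0.14, -1.92 ± 0.16 and -2.76 ± 0.52), and Ngfr and Cygb were higher (2.44 ± 0.19 and 1.13 ± 0.20). With library totals 5 were lower and 5 higher.

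Of 22 tested sinusoidal endothelial markers, 11 were higher and 5 lower (median 0.47), and the lower count was 2 without GFP replicate 1 and 3 without Yap1S5A replicate 2 or GFP replicate 2. The scavenger receptor genes Mrc1 and Stab1 and the factor gene Maf rose most (2.48 ± 0.14, 1.68 ± 0.17 and 1.9 ± 0.13), and Kupffer cells express Mrc1 and Maf as well. Of 24 tested markers of other vessels, 16 were higher and 8 not called (median 1.04). For 4 of them, Esm1 included, the filter was met in Yap1S5A-labelled livers alone. Of the 20 that met it in each group, 12 were higher (median 0.71). Esm1, a gene of sprouting vessels, stood at 3.22, 7.02, 5.13 and 4.63 CPM in Yap1S5A-labelled livers, against 0.466, 0.659, 0.305 and 0.164 CPM in GFP-labelled livers (3.61 ± 0.39). The elastin gene Eln had 22.6, 27.7, 20.1 and 56.4 CPM in Yap1S5A-labelled livers, against 3.42, 3.66, 3.43 and 2.63 CPM in GFP-labelled livers (3.27 ± 0.32), with Yap1S5A replicate 4 the highest and no overlap. The 1 of 5 tested mesothelial markers that was higher was Podxl (1.32 ± 0.17), also a vessel gene.

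Complement and clotting genes moved in both directions. Of 37 tested complement genes, 17 were lower and 10 higher (median -0.25, and 0.18 with library totals). Liver-made Mbl2 stood at 63.3, 61, 54.8 and 50.5 CPM in Yap1S5A-labelled livers, against 1057, 794, 1164 and 989 CPM in GFP-labelled livers (-4.12 ± 0.17), and C8g was at -3.62 ± 0.19. C1qb, made by macrophages, stood at 350.3, 382, 343 and 346 CPM in Yap1S5A-labelled livers, against 23.9, 31.5, 28.1 and 34 CPM in GFP-labelled livers (3.6 ± 0.15), and the receptor genes C3ar1 and C5ar1 rose with it (4.96 ± 0.28 and 4.04 ± 0.38). Of 39 tested coagulation and fibrinolysis genes, 20 were lower and 8 higher (median -0.42, and 0.00 with library totals). Among the 35 that passed in each group, 20 were lower and 4 higher. F11, F7 and Tfpi2 were lower (-2.65 ± 0.20, -1.87 ± 0.17 and -1.99 ± 0.23), while F13a1, the macrophage and platelet transglutaminase, and the urokinase receptor gene Plaur were higher (5.97 ± 0.35 and 4.37 ± 0.30).

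Iron and antioxidant genes were mixed. Of 42 tested iron, copper and heme genes, 17 were lower and 15 higher, with a median of -0.16 that became 0.26 with library totals. Both ferritin chains fell, Fth1 at 196, 328, 292 and 325 CPM in Yap1S5A-labelled livers, against 1056, 1001, 1103 and 689 CPM in GFP-labelled livers, and Ftl1 by -1.63 ± 0.17 on the log2 scale. The metallothionein gene Mt2 stood at 13.4, 46.7, 14.6 and 68.1 CPM in Yap1S5A-labelled livers, against 6.6, 6.59, 3.88 and 6.08 CPM in GFP-labelled livers, so that Yap1S5A-labelled livers split into a low and a high pair, both above the GFP-labelled livers (2.62 ± 0.57). Of 37 tested NRF2 antioxidant genes, 21 were lower and 9 higher (median -0.49), with Me1, Gpx1 and Sod1 lower (-4.08 ± 0.27, -2.32 ± 0.17 and -2.19 ± 0.19) and Abcc1, Gpx3 and Hmox1 higher (3.09 ± 0.19, 2.4 ± 0.26 and 1.79 ± 0.29). Ribosome assembly and RNA polymerase I genes were called lower for 22 of 56 and higher for 6 (median -0.17), and higher for 24 and lower for 7 with library totals, so no direction is drawn.

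Genes of tissues that neighbour the liver were low and uneven between libraries. Of 12 tested fat cell and skeletal muscle genes, 3 were lower and 9 not called, but 8 were lower without GFP replicate 1 and 1 without GFP replicate 3. Their sums were 62.7, 27.1, 24.1 and 119.9 CPM in Yap1S5A-labelled livers, against 18.3, 104.9, 360.9 and 112.6 CPM in GFP-labelled livers. Of 3 tested pancreatic and gut genes, Cela1 and Fabp2 were lower (-1.79 ± 0.24 and -3.1 ± 0.30). Among 12 tested red cell precursor genes, 9 were higher and 2, Alas2 and Klf1, were lower, and for 7 the filter was met in Yap1S5A-labelled livers alone. Of the 5 that met it in each group, 2 were higher and 2 lower (median 0.14, beside 2.53 over the 12). Alas2, the heme synthesis enzyme of red cells, stood at 20, 17.1, 15.8 and 13.1 CPM in Yap1S5A-labelled livers, against 135, 136, 104 and 135 CPM in GFP-labelled livers (-2.95 ± 0.16), whereas the anion exchanger gene Slc4a1 was higher (5.06 ± 0.36). Klf1 lost its call without GFP replicate 1 (-0.63).

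Some values named above moved with the processing. With library totals, the falls of Acaca, Aldoa, Apoa1, Dcn, Fabp5, Id3, Klf1, Mmp15, Mmp19, Reck and Spc24 were not called (-0.73 to 0.00). The removal of the length trend ended the calls of Abcd2, Aldoa, Apoa1, Fabp5, Gldc, Gpt2, Klf1, Nr1h3 and Spc24. It turned the sign of Crb3 (0.0402), Id3 (0.0179) and Taok1 (-0.0819) and ended their calls. Other values moved by over 1.5 times with their direction kept, with Fabp1 at -5.30, Apoa2 at -2.32, Mup3 at -2.83, Mbl2 at -3.51, Nr0b2 at -1.88, Fitm1 at -4.08 and Fabp2 at -2.40. Cela1 came to -1.19, Dctpp1 to -0.43, Ftl1 to -0.97, Gpx1 to -1.69, Sod1 to -1.27 and Bst2 to -0.67. Among rises, Fabp7 came to 5.31, C1qb to 4.20, Lcn2 to 5.55, Mt2 to 3.53, S100a6 to 5.12 and Gstm5 to 1.15. In 1 fit of all 16 libraries, Aldoa, Apoa1, Hp, Klf1 and Trf were not called (edgeR adjusted p = 0.084 to 0.29).

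**Figure D5:**
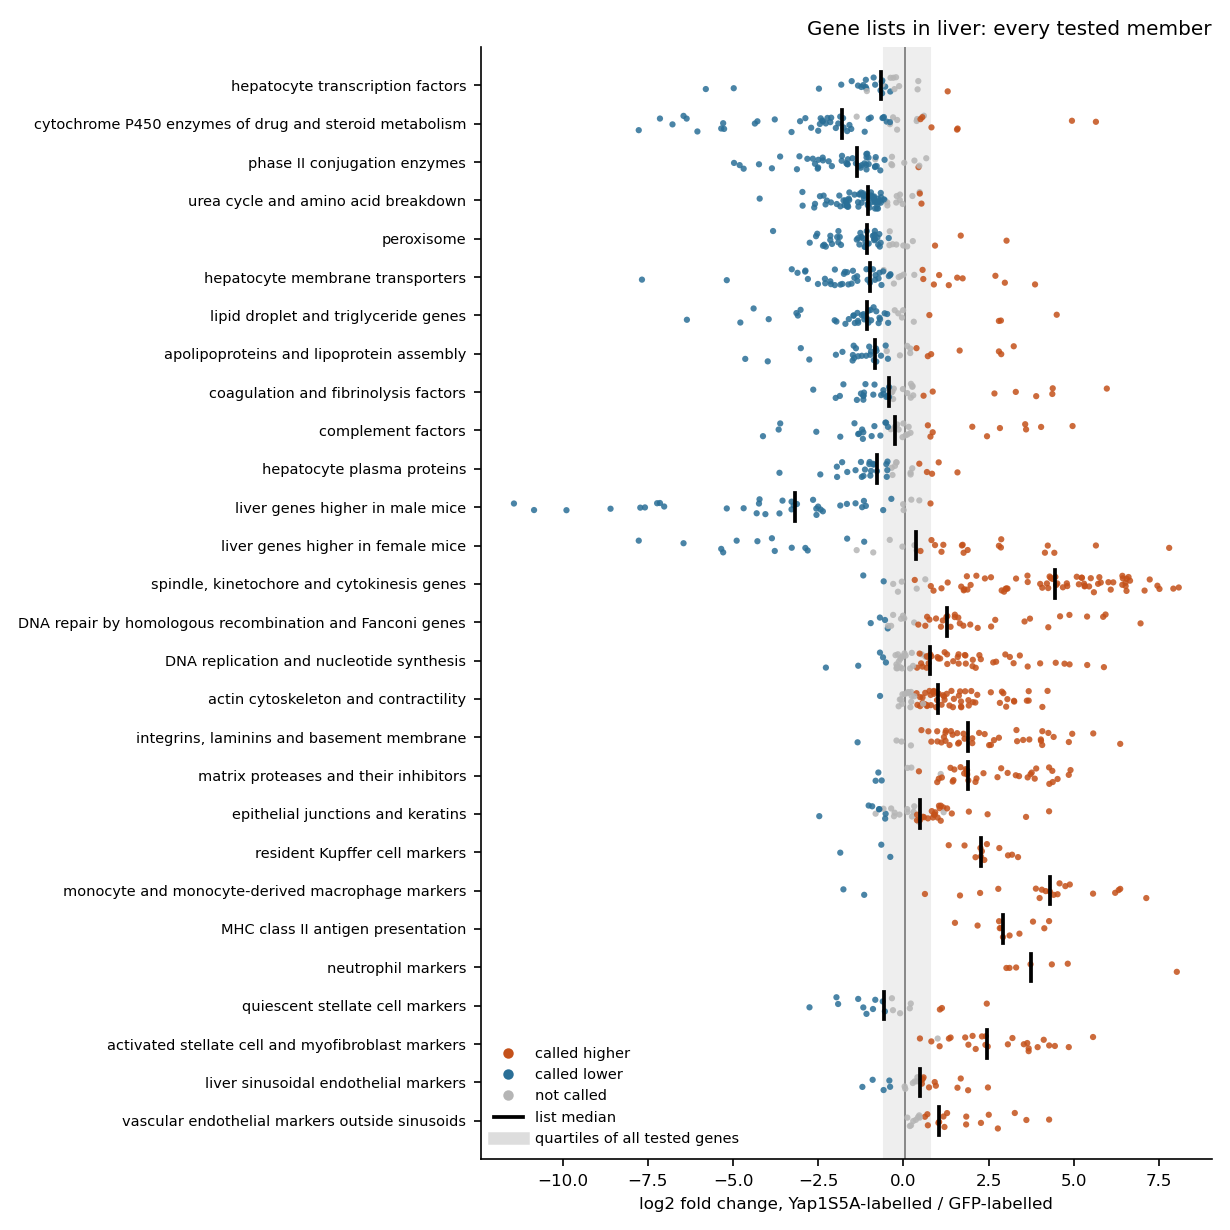
Log2 fold change of Yap1S5A-labelled over GFP-labelled livers (horizontal axis) of each tested member of 28 gene lists (rows), with a black line at the list's median and a grey band over the quartiles of all tested genes (-0.57 to 0.78). Spindle genes and monocyte markers have medians of 4.46 and 4.30, and genes higher in male mice one of -3.17. Over members that passed the low-count filter in each group, these medians are 1.30, 3.39 and -2.47.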

How the data were processed

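Counts of 8 bulk liver libraries of total RNA were analysed. Per the accompanying sheet, the authors deposited raw read counts, with a symbol, exon coordinates and exonic length for 13701 genes. Build mm10, STAR 2.4.2a, featureCounts of Subread 1.5.0 and FastQC 0.11.5 are credited to the submitters' processing notes. The sources used here do not give the strand setting, counting parameters or gene filter, so overlapping and antisense genes were not told apart. The authors also deposited scaled values, treated as a score because their sums differ between columns, and these were not used. Symbols of 21 genes were stored as dates, and these genes stayed in the fit unnamed.

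Groups came from the titles. edgeR 4.0.16 in R 4.3.3 tested Yap1S5A-labelled over GFP-labelled livers on the deposited counts, with filterByExpr, TMM scaling, robust glmQLFit, glmQLFTest and, for changes beyond 2-fold, glmTreat, at a Benjamini-Hochberg adjusted p under 0.05 over 12818 genes. The common biological coefficient of variation was 0.185. The SE is the log2 fold change divided by the square root of F. Alternatives used other scaling, filters, DESeq2 1.42.0, a replicate block, a length trend, single libraries left out, and all 16 libraries in 1 fit. The fit was tested on simulated data. Figures and tables used Python 3.11.15 and matplotlib 3.10.9.

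Gene lists and members were chosen with earlier results of these data known. Some genes that the rule picks, and the isozyme families that hold them, are not reported here, though list counts include them. Genes are named by rule: the 10 largest gains and losses in mean CPM among called genes, up to 3 rises and 3 falls per list among members beyond 2-fold with at least 1 CPM and no overlap, called members against a list's direction where 3 or fewer, every isozyme and Hippo component, and defining markers. Depth was 13817718 to 16491679 counts per library. The 95% intervals and the 3-count floor, on reads without molecular identifiers, cover counting error only. Chi-square over degrees of freedom between replicates was 13.8 to 63.7, so none was merged. Deviations of same-numbered libraries correlated at -0.10 to 0.03, so numbers do not pair samples.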

Additional observations from a re-analysis of the deposited data

Results flagged for a closer look

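In 27 of 544 groups of 4 libraries with any spread (4.96%), over 273 named genes, 1 library stood apart from the other 3 by Dixon's criterion at the 95% level. Chance meets it in about 1 in 20 groups, which would give 27.2. Values are in CPM, with the nearest of the other libraries of that group in brackets.

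Among Yap1S5A-labelled livers, replicate 1 stood apart for Axl at 147.5 (180.8), Cyp2a5 at 14.3 (3.37), Hk1 at 8.37 (13.2), Irf4 at 4.10 (2.67), Itgam at 75.9 (88.6) and Lats2 at 37.9 (44.1). Replicate 2 did so for Ccna2 at 19.3 (15.4), Gna14 at 4.91 (5.10), Mcm10 at 17.8 (16.2), Prc1 at 22.4 (17.9) and Serpina1e at 3456 (2796). Replicate 3 did so for Cela1 at 5.51 (4.01), and replicate 4 for Eno3 at 7.04 (3.69) and Nrg4 at 5.84 (3.27).

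Among GFP-labelled livers, replicate 2 stood apart for Acsl4 at 62.1 (49.6), Capg at 3.44 (1.72), Phyh at 1793 (1593), and for Fanci and Spink1 at 0.0732, with the other 3 libraries at 0. Replicate 3 did so for Alas2 at 104.5 (135), Frmd6 at 2.82 (5.20), Ppl at 43.8 (20.5), Serpina3k at 7801 (11800) and Ccl20 at 0.0762, with the other 3 libraries at 0. Replicate 4 did so for Creb3l3 at 517 (362), Mmp19 at 123.5 (97.5) and Wwc1 at 109 (90.1).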

How the results depend on the processing

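Scaling had the widest effect. With library totals, 6506 genes were higher and 2102 lower in Yap1S5A-labelled livers, and 459 were lower beyond 2-fold. A filter at a mean of 5 CPM left 1234 genes higher beyond 2-fold, from fewer genes tested. Across the other alternatives run (RLE and upper-quartile factors, no filter, DESeq2, the length trend and the joint fit of 16 libraries), the calls lay between 3922 and 4627 higher and 3474 and 4223 lower. Without single libraries they ranged from 3810 to 4195 higher and 3622 to 4049 lower, the genes higher beyond 2-fold in Yap1S5A-labelled livers from 1866 to 2050, and those lower beyond 2-fold from 870 to 1028. The replicate block gave 4097 higher and 3683 lower; the numbers do not pair the samples.

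Of 273 named genes, 8 changed sign under 1 alternative while called in it or in the main fit, and the cause was not tested. With the length trend taken out these were Crb3 (0.0402), Id3 (0.0179), Mpp5 (-0.35), Taok1 (-0.0819) and Vgll4 (0.46), and with library totals Nf2 (0.41), Nr1h3 (0.0346) and Slc2a2 (0.0336). Direction and call held, or the gene was called in neither fit, for 247 of the 273 with the length trend and 248 with library totals. This count was 272 with DESeq2 and 265 to 270 without single libraries. Signs of genes called in neither fit were not compared. Genes with few counts in 1 group rest on their counting intervals, and differences in them below that were not detectable at this depth.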
